A study of Mus musculus with 18 samples.

Results

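The replication-dependent histone genes encode the bulk of the linker histone H1 and the core histones H2A, H2B, H3 and H4, and most of them lie in the large Hist1 cluster. Members were taken as every gene symbol of the Hist1 to Hist4 clusters that names an H1, H2A, H2B, H3 or H4 gene and had at least 50 counts summed over the 18 libraries. There were 52 members among 69 such symbols and 53672 genes in all. By class they were 6 H1, 11 H2A, 13 H2B, 10 H3 and 12 H4 genes. By position 44 lay on chromosome 13 (Hist1), 5 in Hist2, 2 in Hist3 and 1 in Hist4. One of the 11 H2A members, Hist1h2al, is annotated as a processed pseudogene (chr13:51202727-51203065) and lies outside the Hist1 cluster that its symbol names. The rule used only names and total counts, and no difference between groups.

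RNA had been sequenced from mouse E14TG2a embryonic stem cells (ESCs) that carry lox sites in both Hdac1 and Hdac2. The cells had been stably transfected with Flag-tagged HDAC1, either wild-type (WT) or with the substitution E63R or Y48E on the protein's surface, which the study made to alter the complexes that HDAC1 joins. Each of the 3 rescue lines was left untreated or given OHT (1 µM), which deletes the endogenous Hdac1 and Hdac2, and each of the 6 groups had 3 libraries. The labels give 5 days for treated and untreated groups alike, while the study's methods describe a shorter exposure to OHT followed by further culture. All groups were grown with leukaemia inhibitory factor, and all carried a rescue transgene, so no group lacks HDAC1 altogether. The labels give 1 stably transfected line per rescue, so the substitution cannot be told apart from other differences between the lines. The study calls its replicates biological, but the labels do not say whether they were separate cultures, so p-values measure the spread between these libraries, part of which may be technical.

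As background, these genes are transcribed in S phase from promoters gathered at the histone locus body, where the factor NPAT acts. Their transcripts usually have no introns and no poly(A) tail. They end just after a stem-loop in the 3' part of the mRNA that is bound by SLBP, which directs cleavage, export, translation and decay. Libraries made by selecting poly(A) RNA therefore hold few of these mRNAs, mainly transcripts that read through to a later polyadenylation site. Whether poly(A) RNA was selected is not stated in the sources used here. The levels given below are those of the histone RNA that this library type retained, and not of all histone mRNA in the cells.

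The stem-loop is shown because it is the feature that sets these transcripts apart. A stem of 6 base pairs (G-T pairs allowed) that starts with GG and ends with CC, around a loop of 4 bases starting with TT, was looked for after the annotated stop codon in GENCODE M21 (mm10). It was found in 35 of the 51 members with an annotated stop codon, and in 176 of 21610 other protein-coding genes (0.814%). Of the 16 without a match, 9 had fewer than 3 bases annotated after the stop codon, so the search could not reach it there. Others had a long annotation after the stop codon and no match, such as Hist1h2bc (742 bases), Hist1h2bq (1608 bases) and Hist2h2be (2192 bases). The match began 24 to 58 bases after the stop codon, with a median of 31. The letters took 5 forms, printed with the stem in capitals and the loop in lower case:
19 members of classes H1, H2A, H2B and H3: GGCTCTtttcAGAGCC
6 members, Hist1h1t, Hist1h2bb, Hist1h2bk, Hist1h3c, Hist1h3e and Hist1h3f: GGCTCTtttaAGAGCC
6 members, all H4: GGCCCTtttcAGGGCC
2 members, Hist1h4i and Hist2h4: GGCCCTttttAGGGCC
2 members, Hist1h4b and Hist1h4j: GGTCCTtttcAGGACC
The form of the stem followed the histone class. No form was shared between the H4 genes and the other classes, and the H1, H2A, H2B and H3 genes with a match had a single stem with either of 2 loops. In Hist1h1c the match lay at chr13:23739512-23739527 on the plus strand.

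The promoter windows of 3 members that were called higher in both mutant lines are shown, each of 300 bases around the RefSeq start site (GRCm38.p6), written 5' to 3' with matches to CCAAT and TATAAA on either strand in capitals:
Hist1h1a promoter window, chr13:23763418-23763717, plus strand: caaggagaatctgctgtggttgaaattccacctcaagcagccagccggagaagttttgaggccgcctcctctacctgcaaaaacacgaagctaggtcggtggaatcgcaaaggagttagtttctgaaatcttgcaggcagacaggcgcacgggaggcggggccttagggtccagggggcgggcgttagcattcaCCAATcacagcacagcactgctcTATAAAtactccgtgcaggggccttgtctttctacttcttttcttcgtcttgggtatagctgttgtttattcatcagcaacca
Hist1h3c promoter window, chr13:23745472-23745771, minus strand: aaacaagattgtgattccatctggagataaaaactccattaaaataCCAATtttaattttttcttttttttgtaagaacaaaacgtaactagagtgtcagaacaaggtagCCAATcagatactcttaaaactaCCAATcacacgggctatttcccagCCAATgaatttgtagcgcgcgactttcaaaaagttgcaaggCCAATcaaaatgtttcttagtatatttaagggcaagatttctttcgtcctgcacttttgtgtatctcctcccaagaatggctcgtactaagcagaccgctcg
Hist1h4n promoter window, chr13:21832148-21832447, minus strand: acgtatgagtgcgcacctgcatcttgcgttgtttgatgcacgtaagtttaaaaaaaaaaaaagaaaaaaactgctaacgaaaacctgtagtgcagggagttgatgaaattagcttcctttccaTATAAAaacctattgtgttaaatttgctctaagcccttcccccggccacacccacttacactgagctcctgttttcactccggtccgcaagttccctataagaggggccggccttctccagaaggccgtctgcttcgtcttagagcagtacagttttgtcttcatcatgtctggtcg
RefSeq windows were found for 46 members, 1 of them with more than 1 start. CCAAT, the letters bound by the trimeric factor NF-Y, occurred in all 6 H1, 10 H2A, 12 H2B and 8 H3 windows, but in 3 of 11 H4 windows. It occurred in 37.41% of all 32851 RefSeq windows of this length. TATAAA occurred in 4 of 6 H1, 5 of 10 H2A, 6 of 12 H2B, 3 of 8 H3 and 7 of 11 H4 windows, against 13.62% of all windows. The octamer ATTTGCAT, a binding motif of OCT1, was found in 5 H2A and 4 H2B windows and in no H1, H3 or H4 window, against 1.74% of all. AAACACAAA, the H1 box, was found in 1 H1 and 1 H2A window, against 0.77% of all. These matches describe the letters in the windows, and are not evidence of binding.

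Libraries held between 9019615 and 11454638 counts on genes. The untreated E63R library of replicate 3 stood apart, with the lowest TMM scaling factor (0.814, against at least 0.955 in the others) and the lowest share of reads on no feature (42.9%, against at least 44.8%). The main untreated E63R results are also given without it. The ESC factors Pou5f1, Nanog and Sox2 were detected in every library at no less than 188.7 CPM (reads scaled to library size with TMM factors). The fibroblast marker Dcn was at 0 in most libraries and at most 0.34 CPM. Col1a1, another fibroblast marker, was detected in every library, at 2.16 to 34.46 CPM. Hdac1 lay between 168.6 and 210.4 CPM in the WT line and between 94.88 and 131.2 CPM in the mutant lines, with log2 fold changes against WT of -1.02 and -0.96 untreated and -0.64 and -0.51 with OHT for Y48E and E63R. The part of the total Hdac1 RNA in the results below was not tested. The OHT responses of Hdac2 were -0.66 ± 0.11 in the WT, -0.21 ± 0.11 in the E63R and -0.07 ± 0.11 in the Y48E line, none of them called. Reads on the transgene can fall on Hdac1, and reads on transcripts with a deleted exon on Hdac1 or Hdac2. The levels of Hdac1 and Hdac2 therefore do not check the deletion.

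The retained level of the members was low. Together they held 704 to 1637 counts in a library, or 71.7 to 175.5 CPM (TMM-scaled). The 11 histone genes listed as replication-independent, among them H2afx, summed to between 2711 and 4232 CPM. The median member averaged 1.32 CPM, so counting error is large for most members. The highest were Hist1h1c, a linker histone gene, at a mean of 17.3 CPM, Hist1h2bc (H2B) at 12.6 CPM and Hist3h2ba (H2B) at 7.25 CPM, which made up 31.4% of the members' sum. Per kilobase of annotated exon the levels were 11.1 for Hist1h1c, 10.9 for Hist1h2bc and 11.8 for Hist3h2ba, while Hist1h3i, an H3 gene with a much shorter annotation, stood at 11.2 CPM per kilobase. The highest H1 members after Hist1h1c were Hist1h1a (3.81 CPM) and Hist1h1d (2.62 CPM), and the highest H2A members Hist1h2ae (2.5 CPM), Hist1h2al (1.98 CPM) and Hist1h2ak (0.968 CPM). Hist1h2bk was the third H2B member at 2.0 CPM. The highest H3 members were Hist1h3i (4.61 CPM), Hist1h3c (4.35 CPM) and Hist1h3e (3.81 CPM), and the highest H4 members Hist1h4i (5.93 CPM), Hist1h4d (4.45 CPM) and Hist1h4n (2.62 CPM).

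Summed over all 52 members, the group means were highest in the Y48E line, at 156.9 ± 16.1 CPM untreated and 145 ± 11 CPM with OHT (SD, n = 3). The 3 untreated WT libraries had 100.4, 101.5 and 86.6 CPM and the 3 OHT-treated ones 82.3, 89.5 and 71.7 CPM. Untreated E63R libraries had 86.5, 79.5 and 170.3 CPM, the last being the library that stood apart, and OHT-treated E63R libraries 114.6, 122.1 and 122.0 CPM. Untreated Y48E libraries had 175.5, 146.1 and 149.2 CPM and OHT-treated ones 153.9, 148.4 and 132.7 CPM. Every Y48E library was above every WT library, and so was every OHT-treated E63R library, while 2 of the 3 untreated E63R libraries lay below the lowest untreated WT value. The untreated E63R mean was 112.1 CPM, above the untreated WT mean of 96.17 CPM, and 83.01 CPM, below it, without replicate 3. Members are not replicates, so no test was run on the sums. In bulk RNA, fewer cells in S phase and less histone RNA per cell cannot be told apart.

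**Figure D1:**
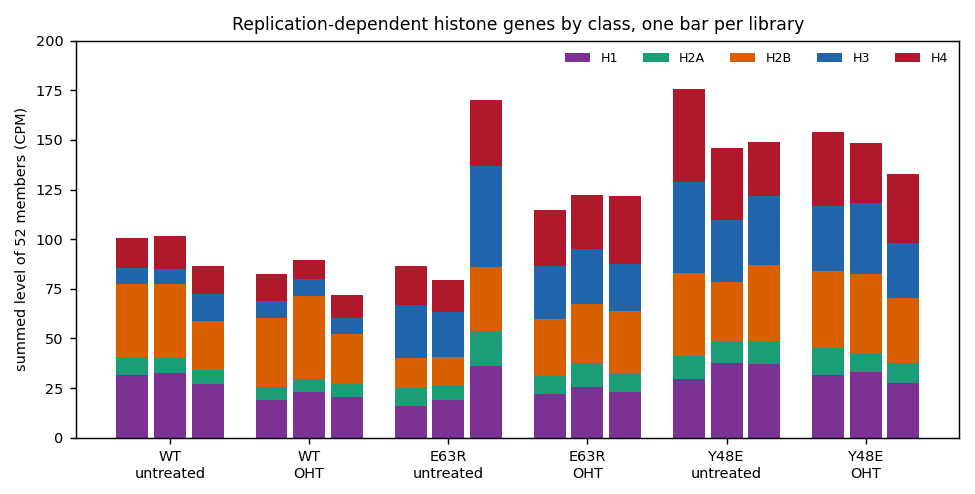
Summed level (CPM, TMM-scaled) of the 52 members in each of the 18 libraries, stacked by histone class, with 3 bars per group in the order of replicates. H3 (blue) and H4 (red) take a larger part of the bar in the E63R and Y48E libraries than in the WT libraries, and the third untreated E63R bar reaches 170.3 CPM.

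The H3 sum was higher in every mutant library than in any WT library, and the H4 sum in every library of the mutant groups except 1 of untreated E63R cells. The H3 sum was 9.63 ± 3.61 CPM (SD, n = 3) in untreated and 8.27 ± 0.231 CPM in OHT-treated WT cells, against 33.4 ± 15.2 and 26.1 ± 1.97 CPM in the E63R line and 37.3 ± 7.8 and 32.1 ± 4.10 CPM in the Y48E line. The highest WT value for H3 was 13.8 CPM and the lowest mutant value 22.9 CPM, and the untreated E63R libraries other than replicate 3 had 26.4 and 22.9 CPM. The H4 sum was 15.3 ± 1.16 and 11.6 ± 2.00 CPM in WT, 23.0 ± 9.09 and 29.7 ± 4.02 CPM in E63R, and 36.9 ± 9.60 and 34.1 ± 3.40 CPM in Y48E. Untreated E63R libraries had 19.8, 16.0 and 33.3 CPM of H4, the last being the library that stood apart, and overlapped the untreated WT range of 14.2 to 16.5 CPM. The H2B sum, by contrast, was 33.2 ± 7.37 and 33.9 ± 8.29 CPM in WT, 20.5 ± 10.5 and 29.8 ± 1.27 CPM in E63R, and 36.8 ± 6.41 and 36.9 ± 3.69 CPM in Y48E, and the groups overlapped. The H2A sum was 6.3 to 8.2 CPM in WT, 9.6 to 13.9 CPM in Y48E and 9.1 to 12.5 CPM in OHT-treated E63R libraries. Untreated E63R libraries had 9.1, 7.7 and 17.4 CPM of H2A. The H2A sum was thus above every WT library in all mutant libraries except 1 of untreated E63R cells. The H1 sum lay between 16.1 and 37.7 CPM over all libraries.

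**Figure D2:**
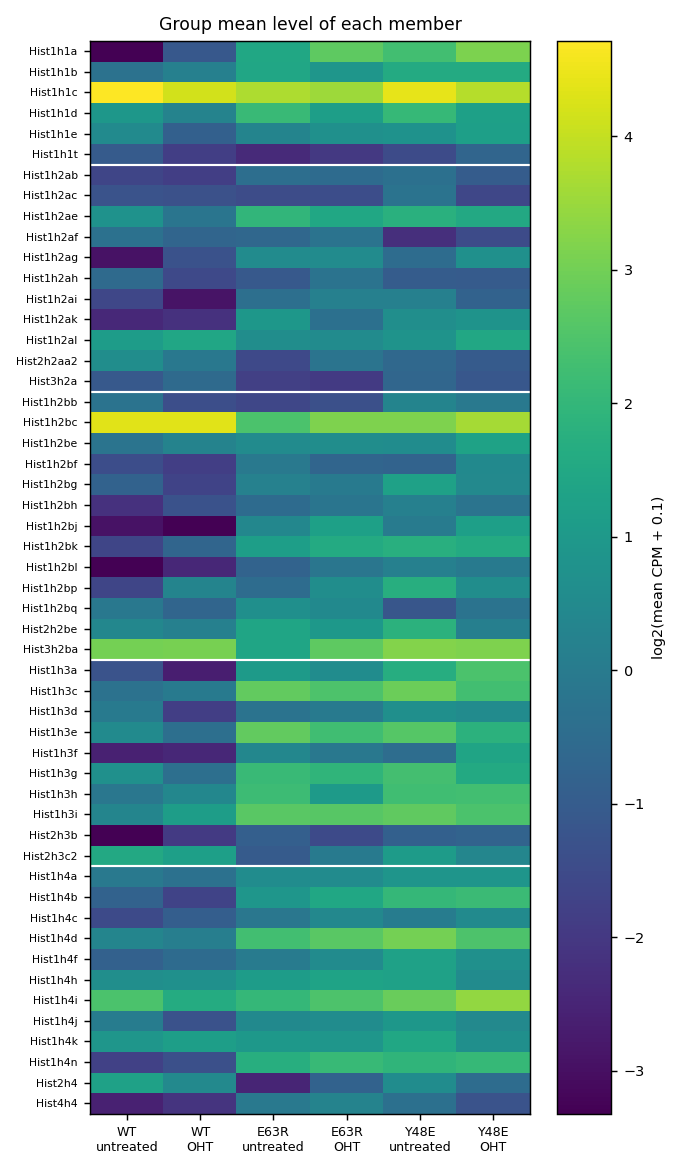
Group mean level of each of the 52 members, as log2(mean CPM + 0.1), in rows grouped by class (H1, H2A, H2B, H3, H4 from the top, divided by white lines) and columns for the 6 groups of 3 libraries. Hist1h1c and Hist1h2bc are the brightest rows, and most Hist1 H3 and H4 rows are darker in the 2 WT columns than in the 4 mutant columns.

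The first comparison asked how each line responded to loss of the endogenous Hdac1 and Hdac2. Of the 45 members that passed the filter on low counts, 0 were called in any of the 3 OHT responses by edgeR's quasi-likelihood test. A member counted as called when its change exceeded 2-fold and its p, after Benjamini-Hochberg adjustment, stayed below 0.01. Among all 18791 genes tested, 0.0532% were called in the WT line, 5.91% in the E63R line and 16.6% in the Y48E line. At an unadjusted p under 0.05 there were 5 members in WT, 4 in E63R and 4 in Y48E, shares of 11.1%, 8.89% and 8.89% against 9.86%, 36.6% and 51.0% of all genes tested. DESeq2 called 0, 1 and 0 members, and the share of all genes that it called was not computed. With no filter on low counts, over all 52 members, 0 were called in WT and Y48E and 1 was higher in E63R, against 0.0937% higher and 0.0624% lower of 32028 genes in WT, 3.43% and 0.756% in E63R and 6.86% and 3.63% in Y48E. Median log2 fold changes over the 45 members were -0.25, 0.12 and -0.25, beside 0.00, 0.03 and 0.05 over all tested genes. The standard errors of members were wide, with medians of 0.86, 0.72 and 0.69 on the log2 scale, against 0.22 to 0.23 for all tested genes, so a 2-fold change in most single members was not detectable at this depth.

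The other 7 members (Hist1h1t, Hist1h2ac, Hist1h2af, Hist1h2ah, Hist2h3b, Hist3h2a and Hist4h4) had too few counts for the test and averaged between 0.265 and 0.522 CPM. Because the filter keeps a gene that is high in a single group, the members tested are not a neutral sample of the 52.

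Hist3h2ba, an H2B gene of the Hist3 cluster, had the lowest adjusted p in an OHT response. Hist3h2ba, Hist2h4, Hist1h1c and Hist1h2bc are named here after their values were seen. In the E63R line Hist3h2ba had 1.85, 1.13 and 4.57 CPM untreated and 6.29, 5.15 and 8.22 CPM with OHT, and the groups did not overlap. The log2 fold change was 1.39 ± 0.39 (SE; edgeR adjusted p = 0.0110), just short of a call. Without the untreated library that stood apart it was 2.1 (edgeR adjusted p = 3.244e-05) and Hist1h1a, Hist1h2bc and Hist3h2ba were called, 3 members in all. In the WT line the change of Hist3h2ba was 0.02 ± 0.35 and in the Y48E line -0.06 ± 0.35. The change of Hist1h2bc in the E63R line was 0.74 ± 0.33 and not called (edgeR adjusted p = 0.111), and it was 1.2 without that library (edgeR adjusted p = 0.003006).

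Hist1h1c, the most abundant member, had 27.16, 29.27 and 22 CPM in untreated WT libraries and 17.43, 18.32 and 17.4 CPM with OHT. Its change was -0.56 ± 0.26 in WT (edgeR adjusted p = 0.469) and -0.59 ± 0.26 in Y48E (edgeR adjusted p = 0.0766), and in neither line was it called. In the E63R line it was -0.18 ± 0.27, and 0.28 without the untreated library of replicate 3. Hist1h1a, which encodes the linker histone H1.1, was listed at 0 counts in all 3 untreated WT libraries and had 0.19, 0.36 and 0.53 CPM with OHT, at least 1.275-fold higher against a floor of 3 counts per library, and was not called (edgeR adjusted p = 0.110). Hist2h4 in the E63R line went from 2 to 16 counts over 3 libraries, a ratio of 6.93 with an exact 95% interval from 1.63 to 62.1 that covers counting error only (edgeR adjusted p = 0.130).

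The difference between the responses was tested as an interaction. By edgeR 0 members were called, against 8.62% of all tested genes for Y48E minus WT, 1.68% for E63R minus WT and 1.31% for Y48E minus E63R. At an unadjusted p under 0.05 there were 5, 4 and 3 members, against 34.0%, 20.4% and 18.8% of all genes tested, and DESeq2 called 0 in each. Without the untreated E63R library of replicate 3, Hist3h2ba alone was called, higher in E63R minus WT and lower in Y48E minus E63R. The lowest p in Y48E minus WT belonged to Hist1h1a at -4.12 ± 1.33 (edgeR adjusted p = 0.0310) and Hist1h2bp, an H2B gene, at -3.43 ± 1.15 (edgeR adjusted p = 0.0346), and both rest on WT groups of 37 counts or fewer.

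**Figure D3:**
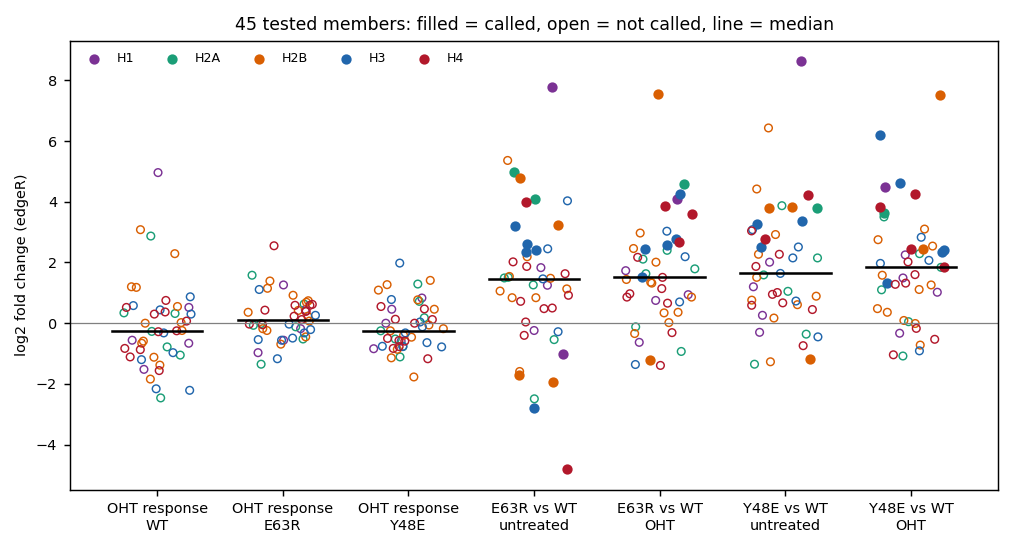
Log2 fold change (edgeR) of the 45 tested members in the 3 OHT responses and the 4 comparisons of a mutant line with the WT line, with 1 circle per member coloured by class, filled where called and open where not. No circle is filled in the OHT responses, and the black median lines lie between -0.25 and 0.12 there and between 1.46 and 1.84 in the comparisons of lines.

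The mutant lines were then compared with the WT line at the same treatment. Each pair of comparisons at 1 treatment shares its 3 WT libraries, so the 2 mutant lines are set side by side and not counted as independent. In untreated Y48E cells 9 of 45 tested members were higher and 1 lower than in untreated WT cells, against 2.62% and 2.95% of all tested genes. In OHT-treated Y48E cells 13 were higher and 0 lower, against 11.0% and 7.23%. In untreated E63R cells 10 were higher and 5 lower, against 3.32% and 4.33%, and in OHT-treated E63R cells 11 were higher and 1 lower, against 5.93% and 3.43%. At an unadjusted p under 0.05 there were 24, 26, 24 and 23 members in that order, against 32.4%, 50.7%, 38.3% and 39.1% of all tested genes. DESeq2, over all 52 members, called 13 higher and 1 lower, 16 and 0, 12 and 4, and 12 and 1. The share of all genes that DESeq2 called was not computed, so these counts have no background beside them. The fit with no filter on low counts, over all 52 members, gave 14 higher and 1 lower, 16 and 0, 13 and 5, and 11 and 1 in the same order, against 1.84% and 2.0%, 6.81% and 4.43%, 2.21% and 2.86%, and 3.95% and 2.12% of 32028 genes.

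Called or not, most tested members stood higher in the mutant lines. The filter keeps a gene that is high in 1 group, so some members may have passed only through a mutant group. This can tilt the counts and medians of the tested members towards higher values in the mutant lines, so they are a description. Log2 fold changes were above 0 for 38 and 37 of the 45 in untreated and OHT-treated Y48E, and for 34 and 37 in E63R, while the share over all tested genes was 49.2%, 51.1%, 49.9% and 50.9%. All libraries of the mutant group lay above all WT libraries for 23 and 23 members in Y48E and 14 and 21 in E63R, against 20.5%, 31.2%, 17.1% and 26.2% of all tested genes. They lay below for 2 and 1 in Y48E and 6 and 3 in E63R, against 19.8%, 28.6%, 18.1% and 24.4%. Medians were 1.64 and 1.84 in Y48E and 1.46 and 1.51 in E63R, beside medians between 0.00 and 0.02 for all tested genes. With members at 0 in WT set to their bound, the untreated E63R median was 1.26 and the others were as given. With no filter on low counts, medians over all 52 members were 1.55 and 1.52 in Y48E and 1.25 and 1.4 in E63R. Without the untreated E63R library of replicate 3 the untreated E63R median was 0.55 over 48 members, with 8 higher and 4 lower. In the fit on the untreated E63R and WT libraries alone it was 0.96 over 28 members, with 1 higher and 0 lower.

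Called members stood in all classes. Hist1h1a, Hist1h3a, Hist1h3c, Hist1h3i and Hist1h4n were called higher in all 4 comparisons, and 17 members in at least 1. The comparisons share WT libraries, and the share of all tested genes with such repeated calls was not computed. These 2 counts therefore have no background beside them. Among H3 genes 3 of 9 tested members were called higher in untreated and 5 in OHT-treated Y48E cells, and 4 and 5 in E63R cells, with class medians between 2.36 and 2.5. Among H4 genes there were 2 and 4 of 11 in Y48E and 1 and 3 in E63R, with medians between 0.72 and 1.6. H2B had 2 and 2 of 13 in Y48E and 2 and 1 in E63R, with medians between 1.13 and 1.51. H2A had 1 of 7 in each comparison save untreated E63R, which had 2, and H1 had 1 of 5 in each.

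Hist1h1a was at 0 counts in untreated WT libraries. Untreated Y48E libraries had 5.72, 5.01 and 3.66 CPM and untreated E63R libraries 2.03, 1.69 and 4.35 CPM, at least 16.9-fold and 9.49-fold higher than the floor of 3 counts per library. With OHT it had 10.04, 6.44 and 9.18 CPM in Y48E and 5.71, 5.43 and 8.22 CPM in E63R, against 0.19, 0.36 and 0.53 CPM in WT. The log2 fold changes with OHT were 4.5 ± 0.49 (edgeR adjusted p = 3.128e-07) and 4.1 ± 0.49 (edgeR adjusted p = 2.596e-06). No stretch of 100 bases of its exon is shared with another annotated gene, so its reads are not in doubt through near-identical copies. It was called in each fit that left out 1 library, in all 4 comparisons.

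**Figure D4:**
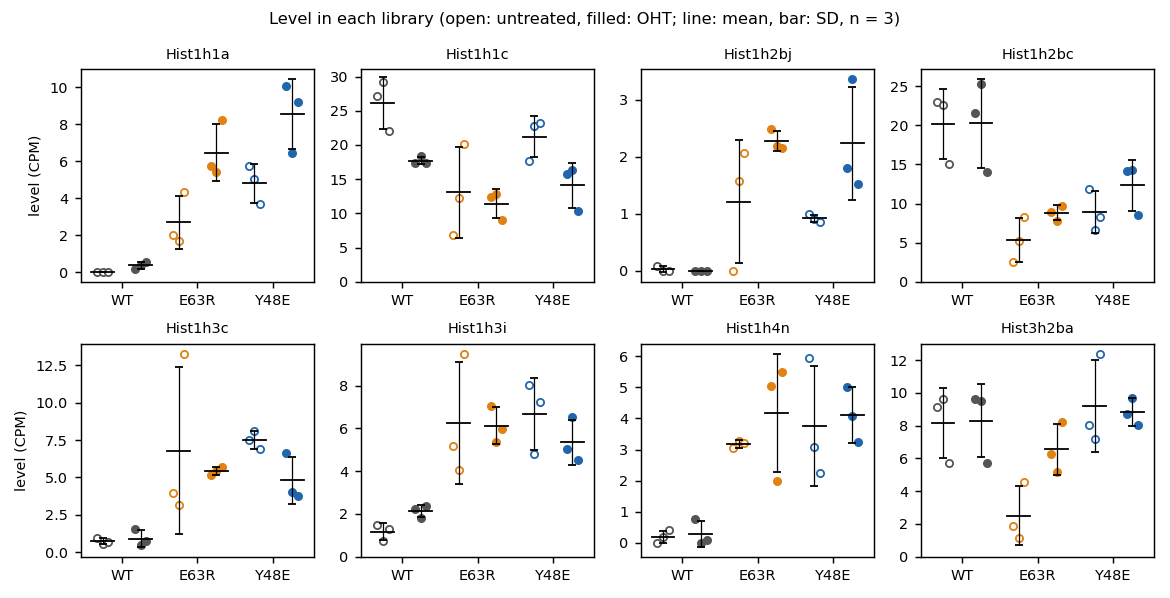
Level (CPM, TMM-scaled) of 8 members in each library, by line, with open circles for untreated and filled circles for OHT-treated cells, a line at the mean and a bar of 1 SD (n = 3). Hist1h1a, Hist1h3c, Hist1h3i and Hist1h4n are higher in both mutant lines than in WT, and the group means of Hist1h2bc are lower.

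Hist1h3c, an H3 gene of the Hist1 cluster, had 0.93, 0.54 and 0.7 CPM in untreated WT, 7.48, 8.08 and 6.89 CPM in untreated Y48E, and 3.97, 3.16 and 13.27 CPM in untreated E63R cells. The log2 fold changes were 3.35 ± 0.53 (edgeR adjusted p = 7.116e-05) and 3.2 ± 0.53 (edgeR adjusted p = 8.578e-05), and with OHT 2.41 ± 0.51 (edgeR adjusted p = 5.86e-04) and 2.58 ± 0.51 (edgeR adjusted p = 5.148e-04). No mutant library reached down to the WT range. The gene was called in each fit with 1 library left out, but not in the fit on the untreated E63R and WT libraries alone. Of its 100-base windows 28.4% occur in another gene.

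Hist1h3i (H3) and Hist1h4n (H4) were also higher in both lines, and share sequence with other genes. Hist1h3i had 1.49, 0.72 and 1.3 CPM in untreated WT, 8.03, 4.78 and 7.22 CPM in untreated Y48E, and 5.18, 4.07 and 9.49 CPM in untreated E63R cells, changes of 2.5 ± 0.39 and 2.4 ± 0.39. With OHT the changes were 1.32 ± 0.36 and 1.51 ± 0.36, called in 1 and 3 of the 6 fits that each left out 1 library. Hist1h4n had 0.0, 0.18 and 0.4 CPM in untreated WT, 5.94, 3.07 and 2.26 CPM in untreated Y48E, and 3.05, 3.28 and 3.2 CPM in untreated E63R cells, changes of 4.22 ± 0.8 and 3.98 ± 0.81. Neither Hist1h3i nor Hist1h4n was called in the fit on the untreated E63R and WT libraries alone. Of the 100-base windows of the 2 genes, 68.6% and 80.7% occur in another gene, so reads may have been dropped or shared with near-identical copies, and which copy was expressed is uncertain. Over the 52 members the median share was 31.4%, with 16 members sharing at least as many windows as they did not.

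Hist1h3a had 0.0, 0.18 and 0.0 CPM in OHT-treated WT, against 4.92, 6.08 and 5.13 CPM in OHT-treated Y48E and 1.32, 1.81 and 1.08 CPM in OHT-treated E63R cells. WT held 2 counts in all, and the ratios were 88.2 (exact 95% interval 24.1 to 734) and 22.95 (6.003 to 195.2). Hist1h2bj (H2B) was at 0 in all 3 OHT-treated WT libraries, against 1.81, 3.36 and 1.53 CPM in Y48E and 2.48, 2.19 and 2.15 CPM in E63R, at least 8.10-fold and 8.27-fold higher. Hist1h4b (H4) had 0.0, 0.63 and 0.0 CPM in OHT-treated WT, 4.32, 4.44 and 4.23 CPM in Y48E and 2.98, 1.33 and 3.72 CPM in E63R libraries, changes of 4.27 ± 0.91 and 3.58 ± 0.91, called in 6 and 2 of the 6 fits that left out 1 library. Its exon overlaps 4930558J22Rik on the other strand, so reads of the 2 genes cannot be told apart without strand. Of the 100-base windows of Hist1h4b 71.8% occur in another gene, and of those of Hist1h3a 32.2%.

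Some called members held only a few WT counts. Hist1h2ag (H2A) had 1 count in untreated WT and 39 in untreated E63R libraries, a ratio of 43.6 (exact 95% interval 7.38 to 1767). Hist1h2ak (H2A) had 3 counts in untreated WT, 40 in untreated Y48E and 50 in untreated E63R libraries, ratios of 15.6 (4.97 to 78.8) and 18.6 (6.02 to 93.4). Its exon overlaps Gm44454 on the other strand, and 16.0% of its 100-base windows occur in another gene. The exons of Hist1h2ag and Hist1h2ai overlap Gm44486 and Gm44367 on the other strand, with 76.2% and 88.4% of windows shared. Hist1h2bk shares 70.8%, Hist1h2bj 40.1%, Hist1h3f 34.3% and Hist1h2bp 31.1%. Hist1h2bj had 1 count in untreated WT and 32 in untreated E63R libraries, a ratio of 35.79 (5.979 to 1457), and the libraries overlapped. Hist1h3f (H3) had 3 counts in OHT-treated WT and 81 in OHT-treated Y48E libraries, a ratio of 27.5 (9.09 to 136). Hist1h2bk (H2B) was higher by 3.82 ± 0.79 in untreated Y48E cells, where it was called in each fit with 1 library left out, and by 3.22 ± 0.8 in untreated E63R cells. Hist1h2bp (H2B) had 0.09, 0.27 and 0.3 CPM in untreated WT and 5.39, 0.68 and 3.55 CPM in untreated Y48E libraries (3.79 ± 0.87). Over the 6 fits that each left out 1 library, Hist1h2bp and Hist1h2ak in untreated Y48E cells and Hist1h2ag and Hist1h2bj in untreated E63R cells were called in 1 fit each. In the same kind of fit Hist1h2ak and Hist1h2bk were called in 4 and 3 of 6 in untreated E63R cells, and Hist1h3f in 3 of 6 in OHT-treated Y48E cells. Hist1h2ai (H2A) had 1 count in OHT-treated WT and 34 in OHT-treated E63R libraries, a ratio of 33.93 (5.692 to 1379), and was lost in each fit with 1 library left out.

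Fewer members were lower, and Hist1h2bc was the one called in 3 of the 4 comparisons. It had 22.98, 22.57 and 15.0 CPM in untreated WT, 2.59, 5.2 and 8.23 CPM in untreated E63R, and 11.88, 6.6 and 8.29 CPM in untreated Y48E cells. The log2 fold changes were -1.94 ± 0.33 (edgeR adjusted p = 1.181e-04) and -1.18 ± 0.31 (edgeR adjusted p = 0.00917). With OHT the change was -1.2 ± 0.31 in E63R (edgeR adjusted p = 0.00514) and -0.72 ± 0.3 in Y48E (edgeR adjusted p = 0.0595), where it was not called. The call in untreated E63R cells held in each fit with 1 library left out, and the other calls did not. In the fit on the untreated E63R and WT libraries alone, Hist1h2bc was not called. Its annotation is unlike that of most members, with 1156 exon bases spread over chr13:23684199-23692908. It has 742 bases after the stop codon without a stem-loop match, and 25.4% of its 100-base windows occur in another gene.

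Hist3h2ba, Hist2h4, Hist2h3c2 and Hist1h1c were called lower in untreated E63R cells and in none of the other 3 comparisons. Hist3h2ba had 9.12, 9.61 and 5.7 CPM in WT against 1.85, 1.13 and 4.57 CPM in E63R, a change of -1.7 ± 0.38. Hist2h4, an H4 gene, went from 75 counts to 2 (-4.81 ± 1.13), and Hist2h3c2, an H3 gene, from 88 to 11 (-2.78 ± 0.73). Of the 100-base windows of Hist2h3c2, 61.6% occur in another gene. Hist1h1c had 27.16, 29.27 and 22 CPM in WT against 6.84, 12.2 and 20.13 CPM in E63R (-1.01 ± 0.26). Over the 6 fits that each left out 1 library, Hist3h2ba and Hist2h4 were called in 4, Hist1h1c in 2 and Hist2h3c2 in 1. Hist2h3c2 was lost without untreated E63R replicate 3 (-2.37; edgeR adjusted p = 0.0203) and with the replicate block, and Hist1h1c with relative log expression factors and with DESeq2. That these 4 members differ between the mutant lines was not tested as such.

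The tested members outside Hist1 had lower medians than those of Hist1, and were 4 of Hist2, 1 of Hist3 and 0 of Hist4. Of 5 tested outside Hist1, 0 were called higher in any of the 4 comparisons and 3 were lower in untreated E63R cells, with medians of -0.45, -0.91, -2.49 and -0.34 in untreated Y48E, OHT-treated Y48E, untreated E63R and OHT-treated E63R cells. For the 40 tested Hist1 members the medians were 2.08, 1.99, 1.5 and 1.68 in the same order.

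The members were also divided by whether the annotation runs at least 150 bases past the stop codon, a limit chosen after the values were seen, so these counts are a description. Of 21 tested members with the longer annotation 1, 4, 1 and 2 were called higher, and 1, 0, 5 and 1 lower, in untreated Y48E, OHT-treated Y48E, untreated E63R and OHT-treated E63R cells. Of 23 with the shorter one 8, 9, 9 and 9 were higher and 0 lower. Over all tested genes 2.62%, 11.0%, 3.32% and 5.93% were higher and 2.95%, 7.23%, 4.33% and 3.43% lower, in the same order. Hist1h2al, which has no annotated stop codon, is in neither set.

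Other RNAs without a poly(A) tail were examined beside the members. Rn7sk, the 7SK RNA, averaged 4.71 and 2.57 CPM in untreated and OHT-treated WT, 7.38 and 5.94 CPM in E63R, and 7.36 and 9.07 CPM in Y48E cells. It was called higher in OHT-treated Y48E than WT cells (1.81 ± 0.37; edgeR adjusted p = 4.424e-04), as was Terc, the telomerase RNA (3.29 ± 0.78; edgeR adjusted p = 0.00162), and neither was called in the other 3 comparisons of lines. Terc also rose with OHT in Y48E cells (3.32 ± 0.8; edgeR adjusted p = 0.00189). Of the 14 such RNAs listed 2 could be tested, and in OHT-treated WT cells 11 were at 0 in all 3 libraries, against 7 or 8 in the other groups. The sum of the list lay between 2.12 and 8.19 CPM in WT libraries and between 7.43 and 19.5 CPM in mutant libraries. Reads with more than 1 alignment were 6.6% or 6.7% of entries in WT, 6.3% to 7.7% in E63R and 6.9% to 7.9% in Y48E libraries. The part of poly(A) selection or RNA quality in the differences between lines was not tested.

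Genes that make and process histone mRNA were examined as lists. Of 15 genes for transcription at the histone locus 0 were called between untreated lines, and with OHT only Ccne1 was called, higher in E63R than WT cells (1.12 ± 0.13). In the OHT response Nfyc, a subunit of NF-Y, rose in E63R (1.09 ± 0.18) and Y48E (1.35 ± 0.18), and Cdk2 and E2f1 fell in Y48E (-1.21 ± 0.1 and -1.02 ± 0.11). The change of Npat in the Y48E response was -0.61 ± 0.18 (edgeR adjusted p = 0.00884), short of 2-fold. Of 16 tested genes for processing and decay of histone mRNA only Upf1, a helicase used in decay, was called, higher in untreated E63R than WT cells (1.2 ± 0.12). Slbp was higher in E63R than WT cells, untreated (0.68 ± 0.15; edgeR adjusted p = 0.00207) and with OHT (0.65 ± 0.15; edgeR adjusted p = 0.0027), short of 2-fold, and was 0.42 ± 0.15 and 0.2 ± 0.15 in Y48E.

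Of 22 genes of DNA replication, a readout of S phase, 3 fell in the Y48E response, Cdc6 (-1.34 ± 0.13), Rrm2 (-1.23 ± 0.09) and Mcm3 (-1.02 ± 0.1), with a list median of -0.67 beside 0.05 over all tested genes. That is 3 of 22 against 16.6% of all tested genes called in this response. The median of the 45 tested members in that response was -0.25. Between lines the medians of the replication list were 0.21 and -0.28 in untreated and OHT-treated Y48E and 0.34 and 0.2 in E63R. Mcm5 was called higher in untreated E63R (1.08 ± 0.09) and Cdc6 and Cdt1 lower in OHT-treated Y48E cells (-1.09 ± 0.13 and -1.26 ± 0.09). No gene of 15 for G2 and M phase was called in the OHT responses or the comparisons of lines. Of 16 histone chaperones only Mcm2 was called, higher in untreated E63R cells (1.1 ± 0.12). Of the 11 histone genes listed as replication-independent only H2afx was called, lower in the same comparison (-1.02 ± 0.13).

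Markers of ESCs and of other cell types moved in some of the same comparisons. In the Y48E response 7 of 10 ESC markers fell and 5 of 8 trophoblast markers rose, while 0 of 45 tested members were called. Between OHT-treated Y48E and WT cells 9 ESC markers were lower, and the summed trophoblast markers were 1245 to 1336 CPM against 324.4 to 332.4 CPM. Between untreated Y48E and WT cells, where 9 members were higher, 0 ESC markers were called and the trophoblast sum was lower, at 165 to 178.4 CPM against 283.7 to 308.6 CPM. In E63R against WT cells 2 ESC markers were lower untreated and 3 with OHT, where 10 and 11 members were higher. Of 8 trophoblast markers 3 were lower in untreated Y48E and 3 in untreated E63R cells, and with OHT 4 were higher and 1 lower in each mutant line. Primitive endoderm markers separated the lines, with sums of 426.4 to 519.4 CPM in WT libraries and 163.7 to 327.5 CPM in mutant libraries, and 3 of 7 tested were lower than in WT in untreated Y48E, untreated E63R and OHT-treated E63R cells, while 2 were higher and 2 lower in OHT-treated Y48E cells. The fibroblast list summed to 86.54 to 96.94 CPM in OHT-treated Y48E and 53.06 to 59.57 CPM in OHT-treated E63R cells, against 39.0 to 43.18 CPM in OHT-treated WT cells. Untreated, it summed to 25.63 to 28.59 CPM in Y48E, 12.92 to 19.65 CPM in E63R and 25.3 to 28.37 CPM in WT cells, and Lum was at 0 in all groups except OHT-treated E63R. In the E63R and Y48E responses 2 of 4 tested rose, against 5.91% and 16.6% of all tested genes called. They were Col1a1 (2.49 ± 0.32 and 3.07 ± 0.32) and Thy1 (1.55 ± 0.16 and 1.42 ± 0.16). Against WT, Col1a1 was higher with OHT in Y48E (2.09 ± 0.29) and E63R (1.14 ± 0.29), and lower in untreated E63R cells (-1.25 ± 0.33). The part of these markers in the members' levels was not tested.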

How the data were processed

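RNA-seq of mouse E14TG2a ESCs (3 HDAC1 rescue lines, with and without OHT, 3 libraries per group, 18 in all) was used. The authors deposited raw counts per gene symbol for each library; the submitters' processing notes name HISAT2 2.1.0, SAMtools 1.9, HTSeq and mm10, and strand setting and poly(A) selection are not given in the sources used here. Counts were checked as whole numbers. The 5 entries that name no gene held 59.4% to 61.2% of entries and were left out. The gene totals ran from 9019615 to 11454638. A count of 0 allows up to 3 counts, or 0.248 to 0.343 CPM depending on the library. Floors and exact 95% intervals cover counting error only, since reads carry no molecular identifiers.

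The filterByExpr function of edgeR, run by group, kept 18791 genes, which were scaled by TMM. One quasi-likelihood model held all 18 libraries with a mean per group (edgeR 4.0.16, R 4.3.3), and p-values were adjusted by Benjamini-Hochberg over all tested genes within each of 10 comparisons. A call needed an adjusted p under 0.01 and over 2-fold. Standard errors came from the fold change and F statistic. The fit was tested on simulated data. The alternatives tried were factors by relative log expression, an unfiltered fit, a replicate block, only the libraries compared, DESeq2 1.42.0, an adjusted p of 0.05, no fold limit, each library left out and, for levels, total gene counts only. Positions, exon lengths, stop codons and shared 100-base windows came from GENCODE M21 and promoter windows from RefSeq.

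The members, gene lists and tests were chosen with earlier results of these data known. Named genes were members called in an OHT response, the 5 called members with the largest change in each direction in each other comparison, the 3 highest per class, and called genes of the lists in the OHT responses whose groups did not overlap. Among the lists of cell type markers, such genes were named for fibroblasts only. Other members, such as uncalled ones in the OHT responses, and genes of the lists in other comparisons were named after their values were seen. Samples were not treated as paired by replicate number, since no correlation of same-numbered deviations was above 0.1. That check cannot tell whether same-numbered samples were grown or processed together. Members were not tested as a set.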

Additional observations from a re-analysis of the deposited data

Results flagged for a closer look

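Of the 17 histone symbols under the count minimum, 9 of 51 symbol and line pairs had more than 3 counts summed over the 3 OHT-treated libraries and 0 in the untreated ones. This rule was set after the counts had been seen, and picks pairs by their outcome. The reverse, more than 3 counts untreated and 0 with OHT, held in 4 pairs, and 11 pairs were at 0 throughout. The summed counts with OHT were 4 for Hist1h2an and for Hist2h2ab and 12 for Hist1h2ap in the WT line. They were 8 for Hist1h2an, 13 for Hist2h2ac and 6 for Hist2h2bb in the E63R line. They were 5 for Hist1h2ao, 9 for Hist1h2ba and 13 for Hist1h2bn in the Y48E line, where all 13 of Hist1h2bn came from 1 library. No test was run, and these symbols share a median of 83.3% of their 100-base windows with another gene.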

How the results depend on the processing

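Counts of called members moved with the settings, and rest on few reads. In the E63R OHT response 1 member was higher with no filter and with DESeq2 and 2 at an adjusted p of 0.05. In the Y48E response 1 was lower with only the libraries compared and 1 at 0.05, and in the difference of Y48E minus WT 2 were lower at 0.05. In untreated Y48E against WT 14 were higher with no filter and 14 at 0.05. In OHT-treated Y48E 21 were higher at 0.05. In untreated E63R 1 was higher and 0 lower with only the libraries compared. With total gene counts only, the summed level was 125.9 CPM in OHT-treated E63R and 160.2 CPM in OHT-treated Y48E cells, and 93.26 and 81.44 CPM in untreated and OHT-treated WT cells. Leaving out each library in turn gave 5 to 9 higher and 0 to 1 lower in untreated Y48E, 4 to 8 and 1 to 4 in untreated E63R, 8 to 11 and 0 in OHT-treated Y48E, and 6 to 8 and 0 to 1 in OHT-treated E63R cells. The summed level of untreated E63R cells was 83.01 CPM without replicate 3, against 112.1 CPM with it. Leaving out a library also gave 0 to 3 higher in the E63R response, 0 to 1 higher in E63R minus WT and 0 to 1 lower in Y48E minus E63R. Called in every such fit were 5, 5, 7 and 5 members in untreated Y48E, untreated E63R, OHT-treated Y48E and OHT-treated E63R cells. The change of Hist1h1c in the E63R response ranged from -0.5 to 0.28 over these fits and reversed without untreated replicate 3, the library behind the other moved counts of the E63R response and of its differences. Of the other values for single genes 718 kept their direction and side of the threshold, 150 lost the call and 4 gained one. Libraries that moved a count by over 1.5 times were Y48E untreated 1 (5 higher in untreated Y48E), WT untreated 1, 2 and 3 and E63R untreated 1 (4, 5, 5 and 6 higher in untreated E63R), WT OHT 1 (8 higher in OHT-treated Y48E), and WT OHT 1, 2 and 3 and E63R OHT 1 and 2 (6, 7, 7, 6 and 7 higher in OHT-treated E63R). The causes were not tested. Depth limits most members, whose mean was about 1 CPM.

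The correlations of same-numbered deviations lay between -0.051 and 0.044, and the labels do not say whether same-numbered samples were handled together. With the replicate block 6 members were higher and 4 lower in untreated E63R cells, and 0 were lower in untreated Y48E cells.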
